A study of Mus musculus with 22 samples.

Results

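The cytosolic ribosomal protein genes encode the proteins of the small (Rps) and large (Rpl) subunits of the ribosome outside mitochondria. Members were taken from the deposited table by mouse symbol (Rpl or Rps with a number and at most one trailing a, l or x, plus Rplp0, Rplp1, Rplp2 and Rpsa, without pseudogenes named -ps), and a member needed at least 10 counts in at least 5 libraries. Of 32858 genes listed, 81 matched by symbol and 78 were kept, 32 of the small and 46 of the large subunit. Rpl38, Rpl39l and Rpl32l had too few counts. Rpl32l is annotated as a processed pseudogene, and the kept member Rps4l is a transcribed pseudogene without a coding sequence in the annotation.

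The 22 libraries are kidneys of male C57Bl6/J mice of 8 to 10 weeks, 1 library per mouse: 5 mice given vehicle (Vehicle), 6 given KW6002 (KW6002), 5 given cisplatin (Cisplatin) and 6 given both drugs (Cisplatin + KW6002). Cisplatin is a platinum drug that damages DNA and injures the renal tubule, and KW6002 (istradefylline) is an antagonist of an adenosine receptor. Treated mice received 6 daily intraperitoneal doses of cisplatin (3 mg/kg each), with or without daily KW6002 (3 mg/kg, beginning at day -5 and ending at day 7), and were killed 72 hours after their final cisplatin dose. The comparisons ask how cisplatin changes the kidney transcriptome and what KW6002 changes when it is added.

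The cytosolic ribosome is assembled from its RNAs and proteins in fixed proportions, and the mRNAs of its proteins are among the most abundant of most cells. Many of these mRNAs begin with a run of pyrimidines, the terminal oligopyrimidine tract, through which mTORC1 controls their translation. Several of the proteins also act away from the ribosome: free Rpl5, Rpl11, Rpl23, Rps7 and Rpl26 bind Mdm2, the ligase that degrades p53, and Rps27l, a close relative of Rps27, is itself a p53 target gene. Each gene has one or a few functional copies and often many processed pseudogenes, which bears on reads of 50 bases that were kept only where they aligned uniquely.

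Rps27 and Rps27l are shown because they are close relatives of which one had little unique coding sequence and the other rose most. The coding sequences below are those of transcripts Rps27-201 (mm10, chr3:90212725-90213615, minus strand) and Rps27l-201 (chr9:66946175-66949357, plus strand) in GENCODE M21, with the bases that differ in capitals.
Rps27: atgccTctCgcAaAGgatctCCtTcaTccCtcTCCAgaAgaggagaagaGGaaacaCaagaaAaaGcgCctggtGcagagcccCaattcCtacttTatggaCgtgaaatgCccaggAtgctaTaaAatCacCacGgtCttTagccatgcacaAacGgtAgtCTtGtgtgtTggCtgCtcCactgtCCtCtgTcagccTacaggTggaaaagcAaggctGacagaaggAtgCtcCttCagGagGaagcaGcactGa
Rps27l: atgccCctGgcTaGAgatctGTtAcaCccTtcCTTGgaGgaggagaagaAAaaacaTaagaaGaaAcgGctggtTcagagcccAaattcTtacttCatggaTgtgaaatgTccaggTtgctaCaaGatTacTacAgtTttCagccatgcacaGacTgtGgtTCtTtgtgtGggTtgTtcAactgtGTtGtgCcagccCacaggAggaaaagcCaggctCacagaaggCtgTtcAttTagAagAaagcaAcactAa
Both were 255 bases long and 76.1% identical. Of the 61 differing bases, 53 fell at the last position of a codon, and the longest identical run was 11 bases, so no read of 50 bases matches both exactly. Of all 50-base stretches of coding sequence, 70.6% were found in no other annotated gene for Rps27l, against 9.4% for Rps27, which shared sequence with 9 other genes.

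This share of unique coding sequence differed widely among the members. It was 100% for Rpl3l, 93.3% for Rps3 and 91.3% for Rpl8, with a median of 16.9% over the 77 members with a coding sequence. In 14 members it was at least 50%, in 44 it lay between 0% and 50%, and in 19 it was 0%. The 14 members held 53.7% of the members' counts in Vehicle, the 44 held 43.2% and the 19 held 2.8%. Levels of single members therefore describe what could be counted rather than what was expressed. Per kilobase of exon, Rplp1 (437 CPM per kilobase in Vehicle, where CPM is a gene's counts scaled to a common library size), Rps15 (256) and Rpl4 (254) stood highest, and Rpl24 (0.21), Rps6 (0.33) and Rpl19 (0.543) lowest. The lowest 3 had no unique coding stretch.

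The start of transcription is shown for 6 members to illustrate the pyrimidine tract. Each line gives 15 bases before and 15 after a RefSeq start (GRCm38.p6, the assembly of mm10, read on the transcribed strand), with a run in capitals where the start is C and at least 4 bases that are each C or T follow.
Rpl15, chr14:18270972-18271001, minus: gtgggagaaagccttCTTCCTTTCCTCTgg
Rps6, chr4:86857353-86857382, minus: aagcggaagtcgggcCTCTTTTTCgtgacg
Rps27, chr3:90213634-90213663, minus: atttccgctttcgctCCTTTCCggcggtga
Rps10, chr17:27635230-27635259, minus: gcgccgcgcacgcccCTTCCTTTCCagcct
Rps27l, chr9:66946071-66946100, plus: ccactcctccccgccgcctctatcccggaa
Rpl39, chrX:37085208-37085237, minus: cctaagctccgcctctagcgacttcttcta
Of 69 starts of 57 members matched by symbol, 12 (17.4%) carried such a run, against 2.51% of all 32851 starts in the table. RefSeq starts can be off by several bases, and a start without the run says only that these letters do not begin there. The 12 members with the run had a median log2 fold change of 0.64 between Cisplatin and Vehicle, and the 45 without it had 0.70.

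Totals ran from 26471762 to 40510754 counts per library. Vehicle 5 and Cisplatin 5 stood apart for the members: their median log2 CPM over the members was 4.12 and 4.57, against 4.44 to 4.59 in the other Vehicle and 4.99 to 5.08 in the other Cisplatin libraries. Vehicle 5 was lowest of its group for 26 of 78 members and Cisplatin 5 for 38, and they were highest for 14 and 20. Other libraries were often lowest too: Cisplatin + KW6002 1 for 26 members, Cisplatin + KW6002 6 for 25 and KW6002 5 for 25. Mice numbered in the 300s were present only in Vehicle and KW6002, 3 in each, so that number series and cisplatin cannot be told apart in those mice.

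Counts on the 78 members took a larger share of each library after cisplatin. The share was 0.405%, 0.396%, 0.381%, 0.392% and 0.376% in the 5 Vehicle libraries and 0.736%, 0.716%, 0.778%, 0.733% and 0.679% in the 5 Cisplatin libraries. In KW6002 it ran from 0.350% to 0.391% (median 0.381%), and in Cisplatin + KW6002 from 0.553% to 0.643% (median 0.590%). Every Cisplatin library lay above every Cisplatin + KW6002 library, and these above every library without cisplatin, while Vehicle and KW6002 overlapped. Group means were 0.390% ± 0.0119 (SD, n = 5), 0.376% ± 0.0156 (n = 6), 0.728% ± 0.0357 (n = 5) and 0.593% ± 0.0332 (n = 6), so that the Cisplatin mean was 1.87 times the Vehicle mean and the co-treated mean 0.813 times the Cisplatin mean. The share of mitochondrially encoded mRNAs moved the other way, from 9.32% ± 0.154 in Vehicle to 4.83% ± 0.447 in Cisplatin and 7.79% ± 0.459 in Cisplatin + KW6002, and its part in the members' share was not tested. With counts on protein-coding nuclear genes alone as denominator, the means were 0.435%, 0.417%, 0.775% and 0.649% in the same order. With library totals scaled by the TMM factors used for CPM, the gap was smaller. The means were then 0.417%, 0.398%, 0.670% and 0.568%. In whole kidney, more cells that make these mRNAs, more of the mRNA per cell and a loss of other RNAs cannot be told apart.

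**Figure D1:**
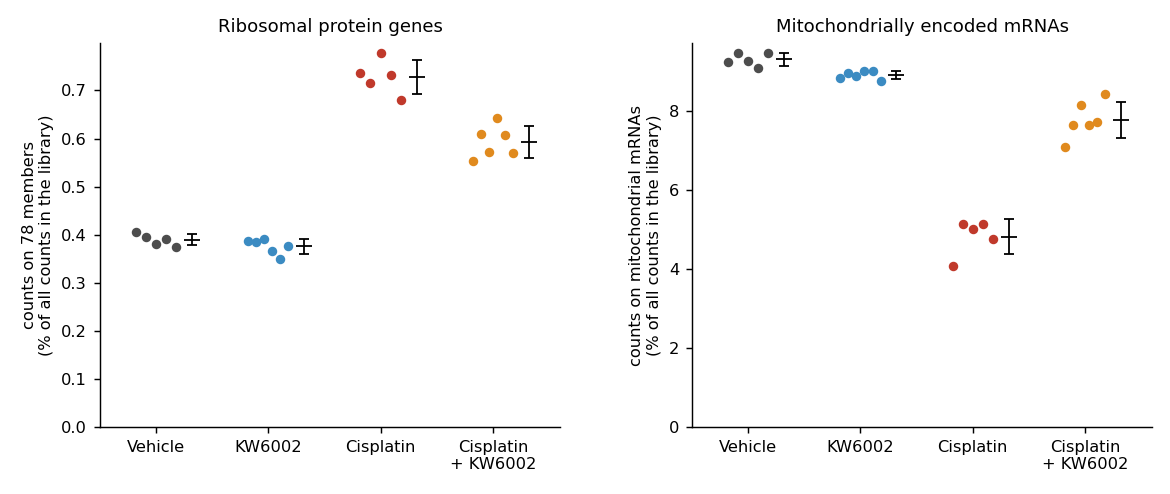
Share of each library's counts on the 78 cytosolic ribosomal protein genes (left panel, percent of all counts) and on mitochondrially encoded mRNAs (right panel, percent of all counts), 1 point per library, with the group mean and SD as a bar. The Cisplatin libraries sit between 0.679% and 0.778% for the ribosomal protein genes, above all Vehicle libraries (0.376% to 0.405%).

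Between Cisplatin and Vehicle, most ribosomal protein mRNAs rose, by amounts that differed among them, a few rose more than 2-fold, and Rpl5 and Rpl15 fell. At an adjusted p below 0.05, 61 of 78 members were higher, against 34.6% of all 17131 genes tested, and 2 were lower, against 35.9%. The median log2 fold change of the members was 0.62, with the middle 50% between 0.34 and 0.83, while that of all genes was -0.01. Both subunits took part: 27 of 32 small subunit members were higher and 0 lower (median 0.74), and 34 of 46 large subunit members were higher and 2 lower (median 0.54). With the stricter thresholds of the study, which ask for a change beyond 1 on the log2 scale and an adjusted p below 0.01, 9 members were higher and 2 lower, against 12.1% of all genes in the higher and 12.1% in the lower direction. The higher count, 11.5% of the members, was near that of all genes. Without Vehicle 5 and Cisplatin 5 together, a choice made after the data had been seen, 59 members were higher and 2 lower, with a median of 0.64. Leaving out Vehicle 3 gave 4 lower members. Restricted to mice of the 500 number series, the fit gave 54 higher and 3 lower. In that series Vehicle has only 2 libraries, Vehicle 4 and Vehicle 5.

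The rise was also present in the members whose coding sequence is mostly their own. Of the 14 with at least 50% unique coding sequence, 13 were higher and 0 lower, with a median log2 fold change of 0.65. Among them Rps3 had 0.72, Rpl8 0.67, Rpl4 0.54, Rpl41 0.70 and Rps27l 1.76. The exception was Rpl3l, the form of Rpl3 made in striated muscle, with -0.07 (adjusted p = 0.716). Of the 19 members without a unique coding stretch, 9 were higher and 2 lower, with a median of 0.38 and values from -1.13 to 1.16. The cut at 50% was set after the data had been seen, and the groups were not compared by a test.

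**Figure D2:**
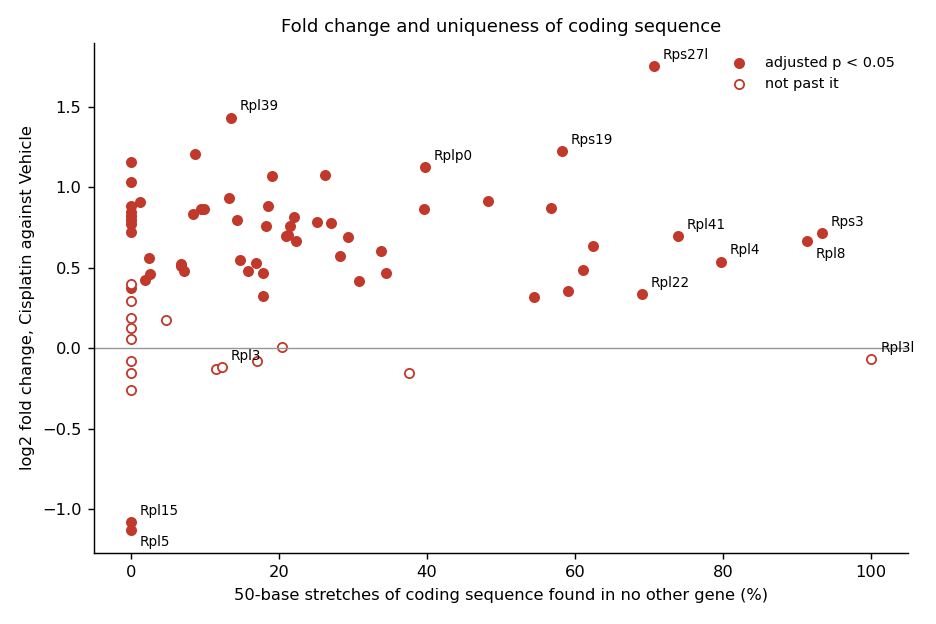
Log2 fold change between Cisplatin and Vehicle (vertical axis) against the percent of 50-base stretches of coding sequence found in no other annotated gene (horizontal axis), for members with a coding sequence. Filled points passed an adjusted p of 0.05. Rpl5 and Rpl15, the members called lower in the fit of all 22 libraries, lie at 0%, and the plotted members at 50% or more lie above 0 apart from Rpl3l.

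Rps27l (ENSMUSG00000036781, chr9:66946086-66949516, plus strand) rose most of all members. It stood at 50.2, 47.3, 50.4, 41.9 and 33.1 CPM in Vehicle and at 142, 161, 164, 166 and 120 CPM in Cisplatin. In KW6002 it ran from 43.8 to 52.9 CPM (median 48.5), and in Cisplatin + KW6002 from 111 to 126 CPM (median 117). Every library with cisplatin lay above every library without it, and Cisplatin 5 lay within the co-treated range. The log2 fold change was 1.76 ± 0.10 (SE, adjusted p = 3.4e-13) for Cisplatin and 1.40 ± 0.09 for Cisplatin + KW6002 against Vehicle, and KW6002 lowered the level under cisplatin by a log2 fold change of -0.36 ± 0.09 (adjusted p = 0.0019). Without Vehicle 5 and Cisplatin 5, Rps27l had 1.74 against Vehicle and -0.43 with KW6002 added. All 12 p53 target genes listed beside it were also higher with cisplatin (median 2.86), against 34.6% of all genes. Cdkn1a, the cell cycle inhibitor, and Mdm2 were among them. With KW6002 added, 7 of the 12 were lower and 1 higher (median -0.42), against 27.2% and 28.6% of all genes. The part of p53 in the rise of Rps27l was not tested.

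Rps27, the relative of Rps27l, was counted at a much lower level per kilobase of exon (0.683 against 54.6 CPM per kilobase in Vehicle). It stood at 0.583, 0.642, 0.605, 0.986 and 0.749 CPM in Vehicle and 0.932, 1.68, 1.25, 1.5 and 1.13 CPM in Cisplatin. The groups overlapped, since Cisplatin 1 lay below Vehicle 4. Its log2 fold change was 0.87 ± 0.22 (adjusted p = 0.0012), which became 0.58 (adjusted p = 0.0788) within the 500 number series, with 2 Vehicle libraries. The genes whose log2 CPM followed Rps27l most closely over the 22 libraries were Sprr2g (Pearson r = 0.984), Zfp365 (0.983), Flot2 (0.983), Sulf2 (0.983) and Rps19 (0.982). These values describe libraries that share their treatment groups.

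Rpl39, Rps19 and Rplp0 also rose more than 2-fold. Rpl39, which lines the exit tunnel of the large subunit, stood at 13.1, 12.8, 13.9, 12.3 and 6.44 CPM in Vehicle and 30.2, 36.6, 33.4, 33.4 and 24.1 CPM in Cisplatin. The groups did not overlap, and the low values belonged to Vehicle 5 and Cisplatin 5. Its log2 fold change was 1.43 ± 0.17 (adjusted p = 9.2e-08), and 1.36 without both libraries. Rps19, the protein most often altered in Diamond-Blackfan anaemia, rose from 52.4, 54.7, 47.6, 47.5 and 37.7 to 114, 124, 119, 123 and 80.2 CPM, a log2 fold change of 1.22 ± 0.11 (adjusted p = 6.8e-10), and 1.25 without both libraries. Its groups did not overlap either.

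The stalk proteins recruit translation factors to the large subunit, and all 3 of their genes were higher. Rplp0 stood at 221, 219, 216, 201 and 230 CPM in Vehicle and 499, 472, 498, 475 and 429 CPM in Cisplatin. The groups lay far apart, with a log2 fold change of 1.13 ± 0.06 (adjusted p = 1e-13). Rplp1 rose by 0.87 ± 0.10 and Rplp2 by 0.60 ± 0.13 on the same scale.

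**Figure D3:**
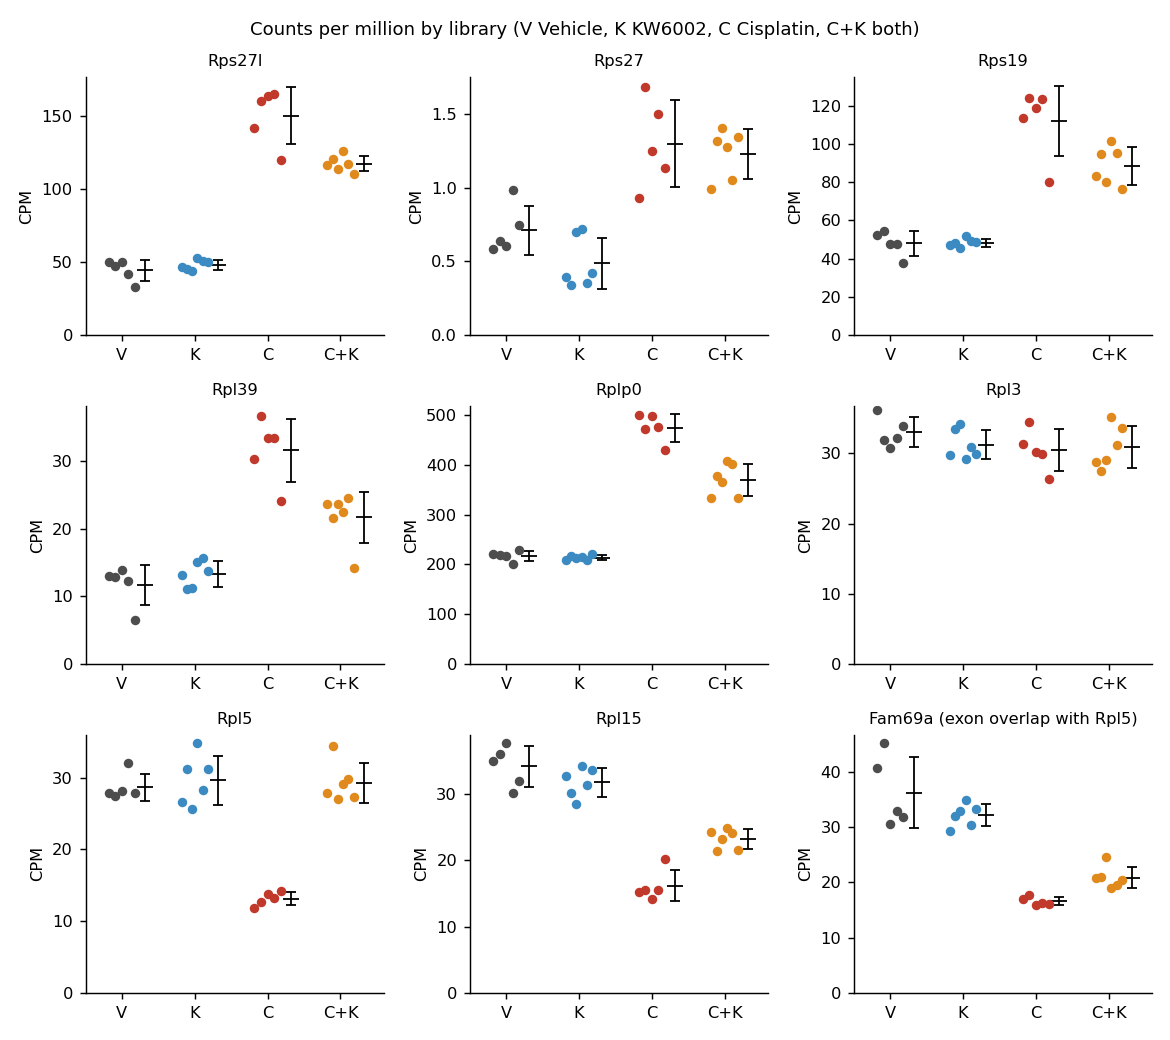
CPM of 8 members and of Fam69a, whose exons overlap Rpl5, in each of the 22 libraries, with the group mean and SD as a bar; each vertical axis starts at 0 and has its own scale. Rps27l, Rps19, Rpl39 and Rplp0 are higher in Cisplatin than in Vehicle without overlap, Rpl3 overlaps in all groups, and Rpl5 and Rpl15 are lower.

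Rpl5 and Rpl15 went against the rest. Rpl5 (ENSMUSG00000058558, chr5:107900502-107909005, plus strand), which carries the smallest ribosomal RNA into the large subunit together with Rpl11, stood at 27.9, 27.4, 28.2, 32 and 27.9 CPM in Vehicle and 11.8, 12.6, 13.8, 13.2 and 14.2 CPM in Cisplatin. In Cisplatin + KW6002 it ran from 27.0 to 34.4 CPM (median 28.5). The Cisplatin libraries lay below all others, and the co-treated libraries lay in the Vehicle range or just beyond it. The log2 fold change was -1.13 ± 0.08 (adjusted p = 2.5e-11) for Cisplatin against Vehicle, 1.16 ± 0.08 (adjusted p = 7.1e-11) with KW6002 added and 0.03 ± 0.08 (adjusted p = 0.757) for Cisplatin + KW6002 against Vehicle.

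None of the 842 coding stretches of 50 bases of Rpl5 was unique by exact match between annotated transcripts. Where its counted reads lay was not examined. Its unique stretches lay partly or wholly outside the coding sequence of the mRNA (320) and in transcripts annotated as non-coding, such as retained introns (1684). Its exons also overlap Fam69a on the other strand, and although the library kit marks strand, whether strand was used in counting is not given in the sources used here. Fam69a fell from 40.8, 45.2, 30.6, 33.0 and 31.8 CPM in Vehicle to 17.0, 17.7, 15.8, 16.3 and 16.1 CPM in Cisplatin, a log2 fold change of -1.13 ± 0.09. With KW6002 added it rose by 0.33 ± 0.09, where Rpl5 rose by 1.16. The part of Fam69a in the Rpl5 counts was not tested.

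Rpl15 (ENSMUSG00000012405, chr14:18267823-18271391, minus strand), a core protein of the large subunit, stood at 35.0, 36.1, 37.7, 30.2 and 32 CPM in Vehicle and 15.3, 15.6, 14.2, 15.6 and 20.2 CPM in Cisplatin. It ran from 21.5 to 24.9 CPM (median 23.7) in Cisplatin + KW6002, between the other groups and overlapping neither. The log2 fold changes were -1.08 ± 0.08 (adjusted p = 6e-11) for Cisplatin against Vehicle, 0.52 ± 0.08 (adjusted p = 7e-06) with KW6002 added and -0.56 ± 0.08 (adjusted p = 1.8e-06) for both drugs against Vehicle. Without Vehicle 5 and Cisplatin 5 (the latter the highest of its group) they were -1.20, 0.62 and -0.58. None of its 563 coding stretches was unique, whereas 1812 of 1873 that reach beyond the coding sequence of the mRNA were. Nkiras1, which overlaps it on the other strand, had -0.18 ± 0.06 for Cisplatin against Vehicle, a smaller change than that of Rpl15.

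Among the other Mdm2 binders, Rpl23 (0.70 ± 0.05), Rpl26 (0.81 ± 0.10) and Rpl11 (0.46 ± 0.09) were higher on the log2 scale in Cisplatin, and Rps7 did not pass the test (0.18 ± 0.15, adjusted p = 0.289). Rpl11, the partner of Rpl5, stood at 3.92, 3.61, 3.39, 3.77 and 3.45 CPM in Vehicle and 4.79, 4.87, 4.93, 4.92 and 5.46 CPM in Cisplatin, without overlap. Only 2.6% of its coding stretches were unique.

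Members with a known paralogue or a role outside the ribosome were mixed. Rpl3, at the peptidyl transferase centre, stayed within overlapping ranges (36.2, 32, 30.8, 32.2 and 33.9 CPM in Vehicle, 31.4, 34.5, 30.1, 29.9 and 26.3 CPM in Cisplatin) and had -0.12 ± 0.07 (adjusted p = 0.157). Rpl13a, which takes part in the control of translation by interferon gamma, had -0.15 ± 0.11 (adjusted p = 0.211). Rpl10, which joins the large subunit late in its assembly, was higher (0.48 ± 0.09), as was Rpl22, which also binds viral and cellular RNAs (0.34 ± 0.05). Rps4x (0.87 ± 0.08), Rpsa (0.91 ± 0.12), the laminin receptor protein, and Rps27a (0.72 ± 0.14), made as a fusion to ubiquitin, were higher too. Rps6, the substrate of the S6 kinases, had 0.88 ± 0.25 (adjusted p = 0.0035) on 9 to 23 counts per Vehicle library and 26 to 50 per Cisplatin library. Within the 500 number series Rps6 had 0.68 (adjusted p = 0.0754).

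Adding KW6002 to cisplatin lowered many of the members that cisplatin raised and raised the few that it lowered. In Cisplatin + KW6002 against Cisplatin, 32 of 78 members were lower, against 27.2% of all genes tested, and 6 were higher, against 28.6%. The median log2 fold change was -0.18, against 0.00 over all genes. Of the small subunit members 17 were lower and 0 higher, and of the large subunit members 15 were lower and 6 higher. Among the 14 members with at least 50% unique coding sequence, 10 were lower and 0 higher, with a median of -0.19. Without Vehicle 5 and Cisplatin 5, 38 members were lower and 6 higher. With each library left out in turn, the lower count ran from 24 (without Cisplatin 3) to 37 (without Cisplatin 5).

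The largest decreases were those of Rpl39, Rps14 and Rps16. Rpl39 ran from 14.2 to 24.5 CPM (median 23.0) in Cisplatin + KW6002, against 24.1 to 36.6 CPM in Cisplatin, a log2 fold change of -0.54 ± 0.16 (adjusted p = 0.005). The ranges overlapped only through Cisplatin 5. Rps14, of the small subunit platform, fell from 286, 301, 344, 280 and 365 CPM to between 194 and 275 CPM (median 221), by 0.48 ± 0.10 on the log2 scale (adjusted p = 0.00033), without overlap. Rps16 was near 1 CPM, and its change of -0.47 ± 0.20 (adjusted p = 0.044) was not called in 14 of the other settings tried, DESeq2 among them.

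Beside Rpl5 and Rpl15, the members raised by KW6002 under cisplatin were Rpl27, Rpl36a, Rpl21 and Rpl10. Rpl27 stood at 3.52, 2.91, 3.81, 3.42 and 4.47 CPM in Cisplatin and from 4.89 to 6.33 CPM (median 5.26) in Cisplatin + KW6002, without overlap, a log2 fold change of 0.59 ± 0.11 (adjusted p = 0.00015). In Vehicle it ran from 2.85 to 4.17 CPM. Rpl10 ran from 9.51 to 11.6 CPM in Cisplatin and from 11.2 to 14.2 CPM in Cisplatin + KW6002, overlapping, with 0.27 ± 0.08 (adjusted p = 0.0085). Rpl36a and Rpl21, 0.38 and 0.35 on the log2 scale, had no unique coding stretch.

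Against Vehicle, Cisplatin + KW6002 still showed 59 members higher and 2 lower, against 29.8% and 29.9% of all genes, with a median log2 fold change of 0.46. Without Vehicle 5 and Cisplatin 5 the counts were 59 and 2 and the median 0.41. Rps27l (1.40), Rpl24 (1.07) and Rpl10a (1.03) led. Rpl10a, which contacts the exit site of transfer RNA, stood at 8.97, 9.90, 11.2, 12.5 and 12.7 CPM in Vehicle, from 16.9 to 28.6 CPM (median 22) in Cisplatin + KW6002 and from 20.6 to 25 CPM in Cisplatin. Both cisplatin groups lay above Vehicle, and KW6002 made no detectable difference under cisplatin (-0.04 ± 0.11, adjusted p = 0.755). Rpl24 rested on 2 to 13 counts per Vehicle library, and within the 500 number series it had 0.33 (adjusted p = 0.425). The 2 lower members were Rpl15 and Rpl27a, the latter with -0.21 ± 0.07 (adjusted p = 0.013). The Rpl27a call was lost with library size only as scaling (-0.05, adjusted p = 0.524) and within the 500 number series (-0.19, adjusted p = 0.0692). Cisplatin and Cisplatin + KW6002 were compared with the same Vehicle libraries.

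**Figure D4:**
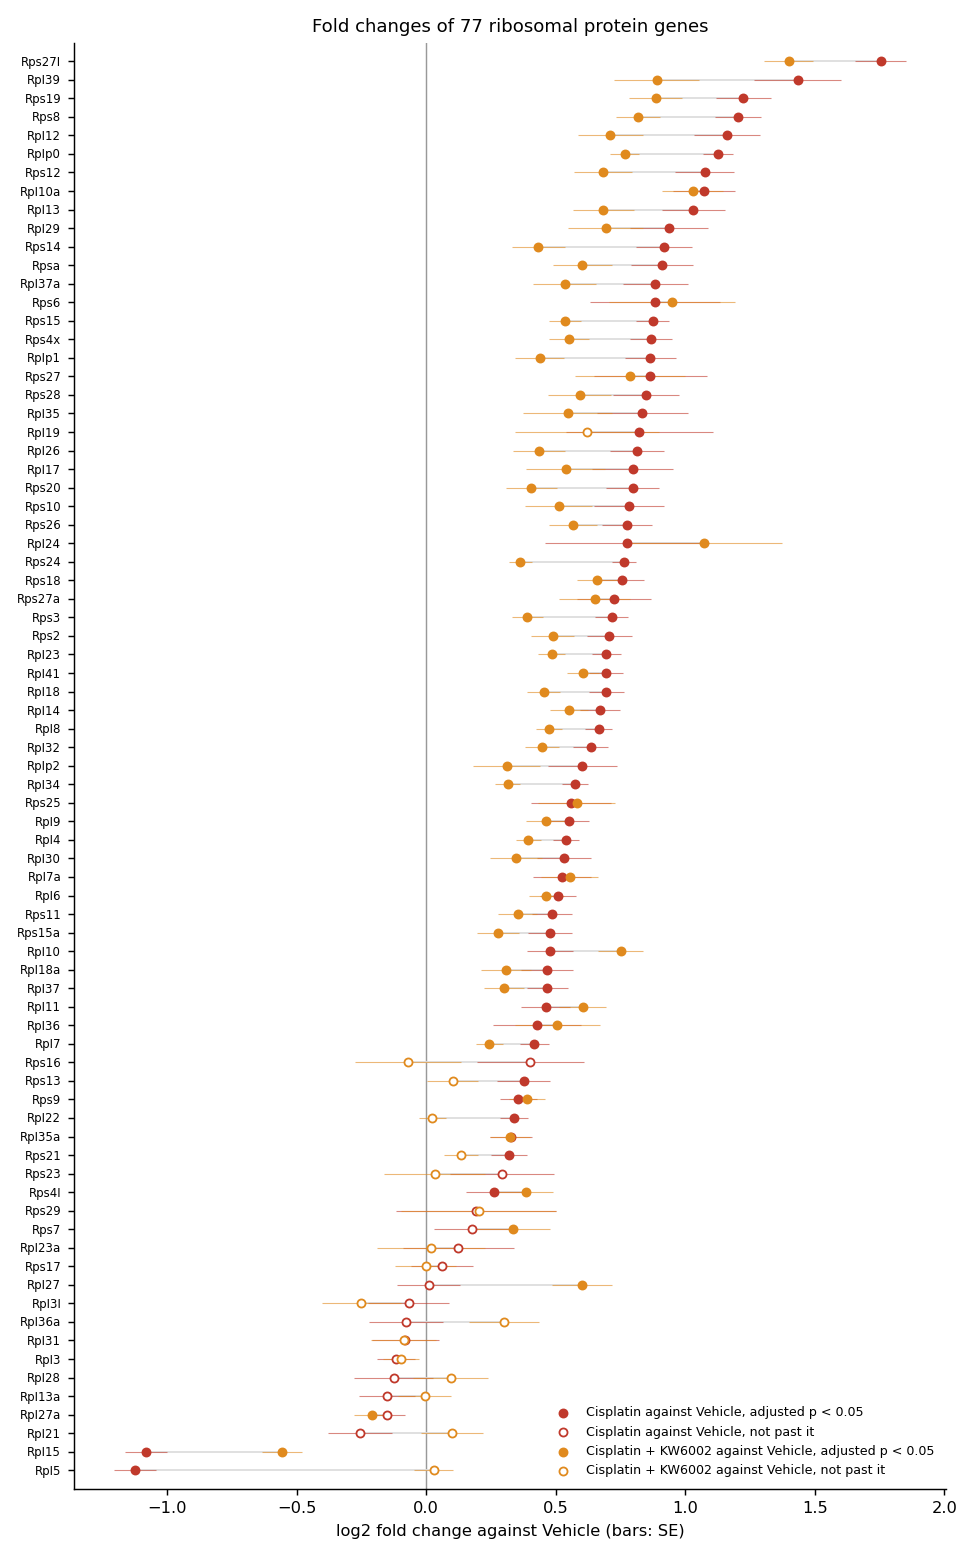
Log2 fold change against Vehicle with its SE for 77 of the members, ordered by the change in Cisplatin, for Cisplatin (red) and Cisplatin + KW6002 (orange). Filled points passed an adjusted p of 0.05, and both groups share the Vehicle libraries. Rps27l tops the order at 1.76 and 1.40, and Rpl5 closes it at -1.13 in Cisplatin and 0.03 in Cisplatin + KW6002.

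KW6002 without cisplatin changed no member detectably. By edgeR 0 members were higher, against 0.0175% of all genes, and 0 were lower, against 0%. The median log2 fold change was -0.03, and 11 of 78 members had an unadjusted p below 0.05, near the share over all genes (1930 of 17131). Leaving out Vehicle 3 gave 1 lower member. DESeq2 gave 12 members with an unadjusted p below 0.05 and called 2 lower, Rpl23 (-0.23, adjusted p = 0.0243) and Rpl7 (-0.21, adjusted p = 0.0256). Rpl23 ran from 39.1 to 47.6 CPM in Vehicle and from 36.2 to 39.8 CPM in KW6002, overlapping.

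The effect of KW6002 with cisplatin differed from its effect without cisplatin for 22 members. The difference was negative for 17, against 19.9% of all genes, and positive for 5, against 22.8%. The 17 are 21.8% of the members, near the share of all genes. Without Vehicle 5 and Cisplatin 5 the counts were 21 and 6, and leaving out 1 library moved the negative count from 13 (without Cisplatin 3) to 24 (without Cisplatin 5). The difference was most negative for Rpl39 (-0.73 ± 0.23, adjusted p = 0.012), Rpl13 (-0.63 ± 0.16, adjusted p = 0.0035) and Rpl12 (-0.55 ± 0.17, adjusted p = 0.012), both of the latter large subunit proteins without a unique coding stretch. Within the 500 number series Rpl12 had -0.45 (adjusted p = 0.156). Rps19 did not pass (-0.35, adjusted p = 0.0519) but was called without Cisplatin 5 (-0.45, adjusted p = 0.00342). It was most positive for Rpl5 (1.11 ± 0.11, adjusted p = 5.6e-08), Rpl15 (0.63 ± 0.11) and Rpl27 (0.60 ± 0.16). Leaving out any of 7 libraries (KW6002 2, Vehicle 4, Cisplatin 1 or 4, or Cisplatin + KW6002 2, 4 or 6) gave 3 positive differences. For Rps27l the difference was -0.47 ± 0.13 (adjusted p = 0.0056).

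Genes that work with the ribosomal proteins did not move as one group. Over all genes tested, 34.6% were higher and 35.9% lower in Cisplatin than in Vehicle. Of 7 ribosomal proteins outside the symbol rule, 3 were higher and 1 lower. Rps3a1, the usual small subunit gene of that number, had 0.98 ± 0.10, and Rack1, a scaffold on the small subunit, 0.63 ± 0.07, while Rpl22l1, the paralogue of Rpl22, had -0.41 ± 0.11. Of 18 translation factors whose mRNAs carry the pyrimidine tract, 6 were higher, near the share over all genes, and 4 lower (median 0.10). Pabpc1, the poly(A) binding protein, rose by 1.09 ± 0.07, and Eef2, the translocation factor, fell by 0.37 ± 0.05 on the log2 scale. Of 7 non-coding host genes of small nucleolar RNAs with such tracts, 5 were higher and 1 lower (median 0.79), led by Snhg5 (1.33 ± 0.11). With KW6002 added 4 of them were lower, against 27.2% of all genes.

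Most of the factors that build ribosomes were higher in Cisplatin against Vehicle, and most were higher in Cisplatin + KW6002 against Cisplatin. Of 48 ribosome biogenesis factors, 30 were higher and 5 lower in Cisplatin against Vehicle (median 0.23), against 34.6% and 35.9% of all genes. When KW6002 was added, 28 were higher and 6 lower (median 0.21), against 28.6% and 27.2%. RNA polymerase I genes were split, 6 higher and 6 lower of 19, near the shares over all genes. Mitochondrial ribosomal protein genes went the opposite way to the cytosolic ones: 50 of 77 were lower and 9 higher in Cisplatin (median -0.23), and 44 were higher and 5 lower with KW6002 added (median 0.20). Among 18 regulators of mTORC1 and of these mRNAs, 6 were higher and 6 lower, also near the shares over all genes. The inhibitors Ddit4 (3.05 ± 0.18) and Eif4ebp1 (2.12 ± 0.17) and the transcription factor Myc (2.42 ± 0.22), which drives ribosome synthesis, were higher, and Mtor was lower (-0.50 ± 0.10).

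**Figure D5:**
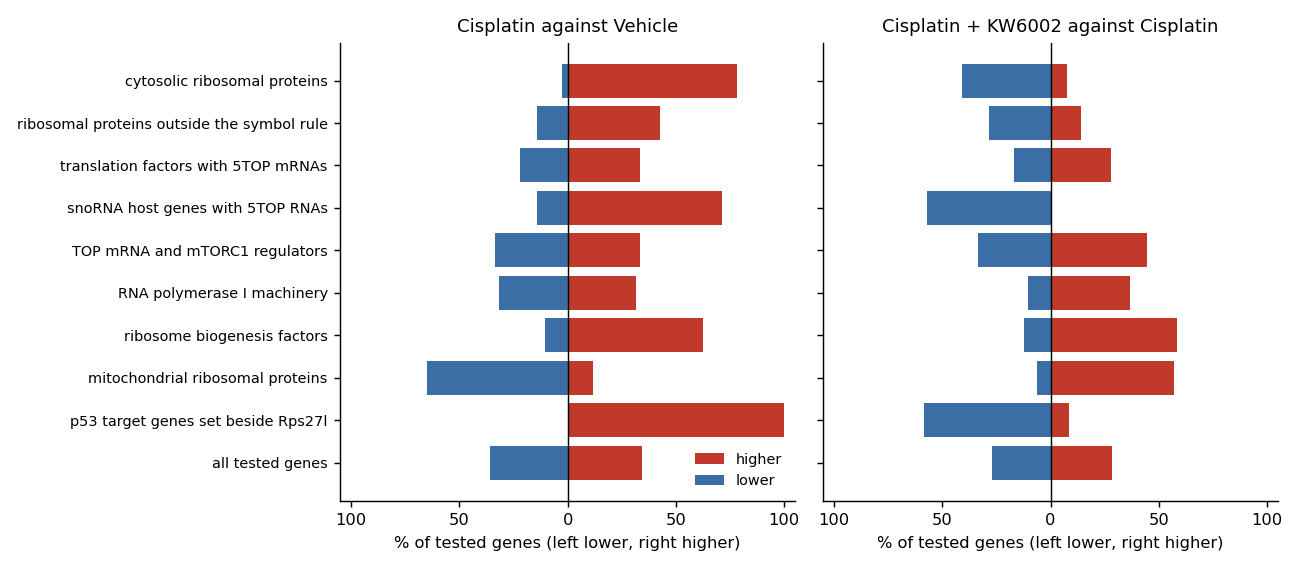
Percent of the tested genes of each list that were higher (right, red) or lower (left, blue) at an adjusted p below 0.05, for Cisplatin against Vehicle and for Cisplatin + KW6002 against Cisplatin, with all tested genes as the lowest bar. The cytosolic ribosomal protein genes are mostly higher in the left panel (61 of 78), and the mitochondrial ribosomal protein genes mostly lower (50 of 77).

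Markers of some cell types moved with the same groups and others did not. All 9 proximal tubule markers were lower in Cisplatin (median -3.17), their summed level running from 16000 to 17000 CPM in Vehicle, 2330 to 3940 CPM in Cisplatin and 7460 to 10800 CPM in Cisplatin + KW6002. All 5 fibroblast markers were higher (median 1.72), from 162 to 354, 834 to 1120 and 340 to 683 CPM in the same groups. All 5 red blood cell markers were lower (61 to 384 CPM in Vehicle, 0.0291 to 0.213 in Cisplatin and 0.34 to 0.691 in Cisplatin + KW6002). All 3 thick ascending limb (median -1.53) and both distal convoluted tubule markers (median -6.11) were lower as well. The 4 fat markers were not called with cisplatin and were lower with KW6002 added (median -2.92). All 3 podocyte markers were lower in Cisplatin (median -0.24), and of 5 endothelial markers 1 was higher and 2 lower. Summed podocyte markers overlapped between the groups (379 to 457 CPM in Vehicle, 387 to 428 in Cisplatin). Endothelial sums did too (352 to 365 and 330 to 418 CPM). Of 4 collecting duct markers, 1 was higher and 1 lower in Cisplatin (median -0.13). Their summed levels were higher in Cisplatin (median 660 CPM) than in Vehicle (median 442 CPM), without overlap. The co-treated sums (median 759 CPM) overlapped both groups. The 1 muscle marker tested was higher in Cisplatin. Sums of the 3 muscle markers listed ran from 0.914 to 1.85 CPM in Vehicle and 2.13 to 2.68 CPM in Cisplatin. All summed levels here were scaled by library totals alone, unlike the fold changes. Of 3 neutrophil markers, 0 were called with cisplatin. Of 6 macrophage markers 1 was higher and 2 lower. All 3 T cell and 3 of 4 B cell markers tested were lower, with summed levels of at most 2.18 and 3.09 CPM in Vehicle. The proximal tubule markers were present in every library. The part of cell type shares in the changes of the ribosomal protein genes was not tested.

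Within groups the members varied together only loosely. For the 44 members with a mean log2 CPM of at least 4, the median Pearson correlation of deviations from the group means over the 22 libraries was 0.21 across 946 pairs, 73.3% of them positive, against a median of 0.01 over pairs of 8572 genes at that level. These libraries share depth and normalization, and the values are a description.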

How the data were processed

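Kidney RNA of 22 mice was profiled from stranded mRNA libraries. The authors mapped reads to mm10 with STAR, kept uniquely aligned reads, and deposited the count of reads per gene made with HTSeq 0.6.1p1 in union mode, not normalized; the submitters' processing notes also name bcl2fastq 2.17.1.14. Another 66 unnamed columns were not used.

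Symbols, positions, and exon lengths came from GENCODE M21. Genes passing filterByExpr (17131, with 99.9% of the counts) were fitted in edgeR 4.0.16 under R 4.3.3 by its quasi-likelihood test on TMM-scaled counts, with 1 mean for each group over all 22 libraries and without covariates; p-values were adjusted by Benjamini-Hochberg over every gene tested. A call needed an adjusted p below 0.05. CPM used TMM library sizes, except in the summed levels of cell type markers, which used library totals without TMM factors. Labels do not pair mice across groups, and 1 library per mouse means that p-values measure the spread between mice. DESeq2 1.42.0 was an alternative. The steps were tested on simulated data. Uniqueness was computed by exact match of 50-base stretches, on either strand, between annotated transcripts.

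The members and all gene lists were chosen with earlier results of these data known. Members are named for a role (paralogues, Mdm2 binders, stalk, extraribosomal functions), as the 3 largest called changes in each direction of a comparison, or as the 3 highest and lowest levels per kilobase; Rps3, Rpl8, Rpl41, Rpl7, Rpl21, Rpl36a, Rps10, and the genes overlapping Rpl5 and Rpl15 were named after their values were seen. One member enters the counts and medians but is not reported here by itself. Alternatives were other scalings, filters, samples, covariates, and each library left out.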

Additional observations from a re-analysis of the deposited data

Results flagged for a closer look

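Libraries lying apart from the rest of their group were looked for in every member and group; chance marks about 1 in 20 such sets. Of 312 sets, 28 (8.97%) were marked, 9 of them through Cisplatin 5 and 5 through Vehicle 5. Among the named members, Cisplatin 5 was apart from the other 4 libraries for Rpl11 (5.46 CPM), Rpl12 (6.40 CPM), Rpl13 (12.4 CPM), Rpl15 (20.2 CPM) and Rps19 (80.2 CPM). Vehicle 5 was low for Rpl22 (97.9 CPM) and Rpl39 (6.44 CPM), and Vehicle 4 was high for Rpl5 (32 CPM) and Rplp2 (49.9 CPM). Rpl13a was low in Cisplatin 4 (9.79 CPM) and Rpl23 in Cisplatin 1 (66.0 CPM). In Cisplatin + KW6002, Rpl23 was low in library 1 (53.1 CPM), Rpl39 low in library 6 (14.2 CPM) and Rps27a high in library 4 (5.04 CPM). Rpsa was low in KW6002 library 2 (2.04 CPM).

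The effect of KW6002 with cisplatin minus its effect without cisplatin passed the test for 15 of 33 named members, 11 negative and 4 positive. Over all genes, 19.9% were negative and 22.8% positive. Some members were named because their difference was among the largest that passed, so the count cannot be set against these shares. On the log2 scale the difference was negative for Rpl39 (-0.73), Rpl13 (-0.63), Rpl12 (-0.55), Rps14 (-0.49), Rps27l (-0.47), Rpl26 (-0.45), Rps4x (-0.35), Rplp1 (-0.34), Rplp0 (-0.33), Rps15 (-0.32) and Rpl22 (-0.25). It was positive for Rpl10 (0.32), Rpl27 (0.60), Rpl15 (0.63) and Rpl5 (1.11). The differences of Rplp1 and Rpl10 lost their call in 17 and 14 of the other settings tried, and those of Rpl12 (-0.45, adjusted p = 0.156), Rpl22 (-0.25, adjusted p = 0.0682) and Rps15 (-0.30, adjusted p = 0.0588) within the 500 number series.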

How the results depend on the processing

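Of 518 summary values recomputed under other settings, 497 moved by less than the limits set. For a median log2 fold change the limit was 0.144, the SD of the members' median between libraries of a group. Direction was judged only for medians that moved beyond this limit, and none of those changed sign. Counts and shares were judged by size alone. Scaling by library size only moved the median of all genes to 0.20 for Cisplatin against Vehicle and 0.16 for Cisplatin + KW6002 against Vehicle, and the members' medians to 0.837 and 0.615; it gave 1 lower member for the latter comparison and 3 with a positive difference between the KW6002 effects, as did no filter. With the label series as covariate 4 members were lower in Cisplatin; within the 500 number series 1 was lower in Cisplatin + KW6002. DESeq2 called 2 members lower for KW6002 alone. Leaving out 1 library gave 2 to 4 lower members in Cisplatin (4 without Vehicle replicate 3), 0 to 1 for KW6002 alone (1 without Vehicle replicate 3), and 3 to 6 with a positive difference between the KW6002 effects (3 without KW6002 2, Vehicle 4, Cisplatin 1 or 4, or Cisplatin + KW6002 2, 4 or 6). With protein-coding nuclear counts as denominator the shares were 0.435%, 0.417%, 0.775% and 0.649% in Vehicle, KW6002, Cisplatin and Cisplatin + KW6002.

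With the replicate number as a block, 61 members were higher and 2 lower in Cisplatin against Vehicle, and 6 higher and 32 lower with KW6002 added. Of 31 pairs of libraries with the same number, 7 had deviations correlated above 0.1, each with a KW6002 library. Between Vehicle and KW6002 the correlations were 0.405, -0.153, 0.132, 0.155 and 0.194. In these groups libraries with the same number also share the number series. The values therefore do not decide whether the numbers pair the samples. Of 5396 values of named members, 95 lost their call and 51 gained one. Rpl19, Rpl24, Rps27 and Rps6, each below 1 CPM in every Vehicle library, lost their call in Cisplatin against Vehicle within the 500 number series. In Cisplatin + KW6002 against Vehicle, Rpl24, Rpl27a, Rplp2, Rps27, Rps6 and Rps7 lost theirs in that series. In this comparison Rps7 lost its call in 13 and Rplp2 in 9 of the other settings tried.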
